A study of Mus musculus with 10 samples.

Results

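Macrophages of the fetal mouse pancreas were picked out of single-cell transcriptomes by a count rule, and 1413 of the 57982 cells kept across 8 libraries passed it. A kept cell had at least 200 genes detected. A macrophage then held at least 5 unique molecular identifiers (UMIs, each one captured transcript) of C1qa, C1qb and C1qc together and at least 1 UMI of Tyrobp, with no UMI of the epithelial gene Epcam and less than 30% of its UMIs from haemoglobin genes. The C1q genes sit together on chromosome 4 (GRCm38, GENCODE M21), all on the minus strand, C1qb at chr4:136880129-136886187, C1qc at chr4:136889804-136893065 and C1qa at chr4:136895917-136898803. The members were thus selected on the counts of these genes, which are given as description and support nothing. Every comparison of members with other cells of the same library is likewise a description with no test.

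The study profiled the embryonic pancreas by droplet sequencing at the stages E12.5, E14.5 and, last, E17.5. In Swiss Webster embryos, 4 libraries made with version 1 chemistry took all live cells, with separate batches 1 and 2 at E14.5, and 3 libraries made with version 2 chemistry took live cells sorted negative for CD140a, the PDGF receptor alpha that marks mesenchyme. The eighth library came from E14.5 Fev-Cre;ROSA26mTmG embryos, in which Cre driven from the endocrine gene Fev switches the reporter from tdTomato to GFP, and held sorted GFP-positive cells mixed with tdTomato-positive ones. It too was made with version 2 chemistry, but version 1 and version 2 stand below for the Swiss Webster libraries only. Each library was a pool of pancreata, the version 2 E17.5 library was read from 2 technical wells that were added up, and dissociation lasted 10 min at E12.5, 15 min at E14.5 and 30 min at E17.5. Chemistry, sort and sequencer changed together between the Swiss Webster libraries of versions 1 and 2, so these cannot be told apart from each other. The stages of version 2 were collected on different days, and dissociation time rose with stage. Within version 2, pool, collection day and dissociation time therefore cannot be told apart from each other or from age. The sex of the embryos is not stated.

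Macrophages are phagocytes that settle in organs before birth, first from the yolk sac and later from fetal liver monocytes. They clear dying cells through scavenger and complement receptors, take up iron and lipid, and depend on signalling through the receptor Csf1r. C1q, which opens the classical complement cascade, is made by tissue macrophages more than by monocytes, neutrophils or dendritic cells. Subsets in many organs are told apart by the mannose receptor Mrc1, the hyaluronan receptor Lyve1 and the phosphatidylserine receptor Timd4 on long-resident cells, and by the chemokine receptor Ccr2 and MHC class II on cells more recently derived from monocytes.

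The members were spread unevenly over the libraries. The version 1 libraries held 19 at E12.5, 48 and 24 in E14.5 batches 1 and 2, and 12 at E17.5. The version 2 libraries held 553, 154 and 535 in order of stage, and the Fev-Cre library held 68. As a share of kept cells, version 1 gave 0.411% at E12.5 (95% exact binomial interval 0.248 to 0.642%), 1.35% in E14.5 batch 1 (0.995 to 1.78%), 0.527% in E14.5 batch 2 (0.338 to 0.782%) and 0.520% at E17.5 (0.269 to 0.906%). Version 2 gave 4.20% at E12.5 (3.86 to 4.55%), 1.69% at E14.5 (1.44 to 1.98%) and 4.19% at E17.5 (3.85 to 4.55%), and the Fev-Cre library gave 0.861% (0.669 to 1.09%). Each of the 3 version 2 shares stood above those of the version 1 libraries of the same stage, from which mesenchyme had not been sorted away, and E14.5 was the low stage in version 2 while batch 1 at E14.5 was the high library in version 1. The technical wells gave 4.37% and 4.01%. Intervals cover counting error only. The members summed to between 47672 and 5840033 UMIs per library, with medians of 3400 to 9915 UMIs per member against 2951 to 11324 in other cells.

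**Figure D1:**
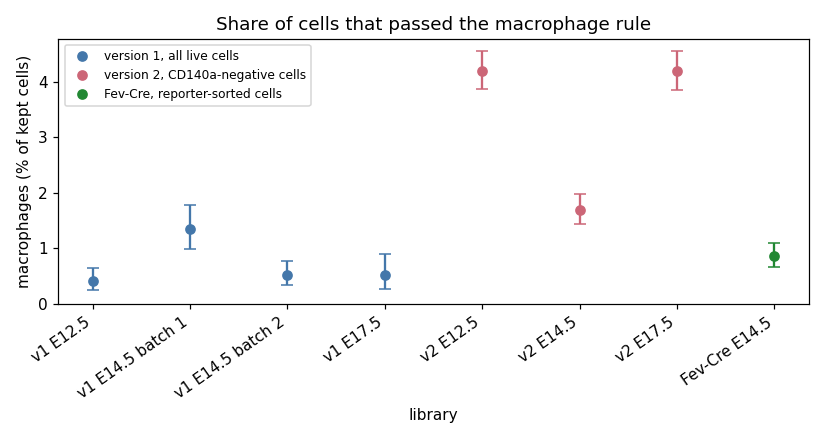
Share of kept cells that passed the macrophage rule in each of the 8 libraries (y axis, percent), with exact 95% binomial intervals as bars and colours for the kind of library. Version 2 E12.5 and E17.5 stand at 4.20% and 4.19%, and the 4 version 1 libraries lie between 0.411% and 1.35%.

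The median number of C1q UMIs in a member ran from 29 in the version 1 E12.5 library to 100 in version 2 E17.5. Members with 5 to 9 C1q UMIs, just inside, numbered 0 to 17 per library, and cells with 3 or 4 that met every other condition, just outside, numbered 0 to 19. The first made up 4 of 19 members in version 1 E12.5 and 2 of 12 in version 1 E17.5. At version 2 E17.5, 56 cells with at least 5 C1q UMIs held none of Tyrobp. Epcam excluded more cells, 120, 38 and 96 in version 2 in order of stage. Between 0.935% and 26.0% of the other cells of a library held a C1q UMI, and at version 2 E17.5 9.55% held 3 or more. No doublet caller was run. Members with at least 3 UMIs of the collagen genes Col1a1, Col1a2 and Col3a1, or at least 2 of the endothelial genes Cdh5, Cldn5 and Plvap, numbered 57 of 553 in version 2 E12.5 and 0 to 6 in the other libraries. Over the 36 pairs of barcode files, at most 155 kept barcodes were shared, and 2 of the shared barcodes belonged to a member in both libraries.

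All 11 macrophage markers, of which C1qb, C1qc and Tyrobp were used by the rule and Lyz2, Fcer1g, Csf1r, Cd68, Aif1, Adgre1, Cx3cr1 and Mrc1 were not, were detected in the members of every library. Their summed level was 13531 to 25200 CPM in members (UMIs of a gene over all UMIs of the summed cells, scaled to a common total), against 69.4 to 1886 CPM in all other cells of the same libraries, a contrast set in part by the rule. The 8 markers outside the rule summed to 6898 to 16451 CPM in members and to 62.1 to 1665 CPM in other cells. Fcer1g, the signalling chain of Fc receptors, stood between 2020 and 3621 CPM in the 8 libraries. Lyz2, lysozyme, was less even, with 996 to 4305 CPM in version 2 and 11499 CPM in the 12 members of version 1 E17.5.

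Other blood lineages were mostly at low levels in the members. Of the mast cell markers, Mcpt4 was at 0 in every library, and of the neutrophil markers Elane was at 0 in every library. Of the lymphoid markers, Cd3e and Rag1 were at 0 in every library, and of the dendritic cell markers Clec9a was. Other markers of these lists were detected in some libraries. At version 2 E17.5, 5 of 8 mast cell, 8 of 9 neutrophil, 4 of 9 lymphoid and 6 of 7 dendritic cell markers were. A UMI of these lists was found in 10.3%, 23.4%, 8.60% and 7.10% of members there, in the same order. Over the 8 libraries neutrophil UMIs were found in 5.97% to 33.3% of members. The lymphoid list summed to 0 to 62.9 CPM in members. The highest sum was 3 UMIs in version 1 E17.5. At version 2 E14.5 it was 55.8 CPM against 24.3 CPM in all other cells, with 6 of 9 markers detected, a UMI in 5.19% of members and 10 or more in 2 of them. The dendritic cell list summed to 3.35 to 46.6 CPM, the highest from 7 UMIs in E14.5 batch 2, where all other cells held 9.40 CPM. Version 1 E17.5 stood apart, since its 12 members held 567 CPM of mast cell and 1007 CPM of neutrophil transcripts in sum, found in 16.7% and 33.3% of them with 1 member holding 10 or more UMIs of each list, where the other libraries ranged over 0 to 12.3 and 7.79 to 76.4 CPM. Erythroid transcripts stood at 1603 CPM in version 1 E14.5 batch 1 and 240 CPM in version 2 E14.5, against 424 and 76.1 CPM in all other cells. In the remaining libraries they were below other cells. The megakaryocyte list summed to 0 to 24.5 CPM, the highest at version 2 E14.5, where all other cells held 5.17 CPM. Its sum was above other cells there, in both version 1 E14.5 batches and at version 2 E12.5, and below them elsewhere. The part of these transcripts in the results was not tested.

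Against all other cells, 888 genes had at least 100 CPM in the members of every library, 331 of them were higher in members than in other cells in all 8, and 65 were at least 8-fold higher in all 8. Ranked by the smallest log2 ratio over the libraries (1 CPM added to both sides), the first 20 outside the rule were Fcrls, Ms4a7, C3ar1, Pf4, Trem2, Ms4a6b, Csf1r, Cx3cr1, P2ry6, Fcgr1, Ms4a6d, Aif1, Ms4a6c, Cd86, F13a1, Apoe, Hpgds, C5ar1, Adgre1 and Ctss. They include surface receptors for complement fragments (C3ar1, C5ar1), nucleotides (P2ry6), lipids (Trem2), immunoglobulin (Fcgr1), the ligands of Csf1r and fractalkine (Cx3cr1), along with the lysosomal protease Ctss.

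Fcrls, an Fc receptor-like scavenger protein described in microglia, led the ranking with a smallest log2 ratio of 6.47. Its level in members was 375 CPM at E12.5, 753 and 359 CPM in the E14.5 batches and 252 CPM at E17.5 in version 1, 528, 526 and 429 CPM in version 2 in order of stage and 802 CPM in the Fev-Cre library. Trem2 held between 320 and 650 CPM in the same 8 libraries, and Apoe, the lipid carrier, between 15978 and 30992 CPM. Each of the 20 genes was also higher in members than in the other 1842 leukocytes, cells with at least 3 UMIs of Ptprc, Coro1a, Laptm5 and Rac2 and at most 1 of C1q under the same Epcam and haemoglobin limits, in 8 of 8 libraries.

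**Figure D2:**
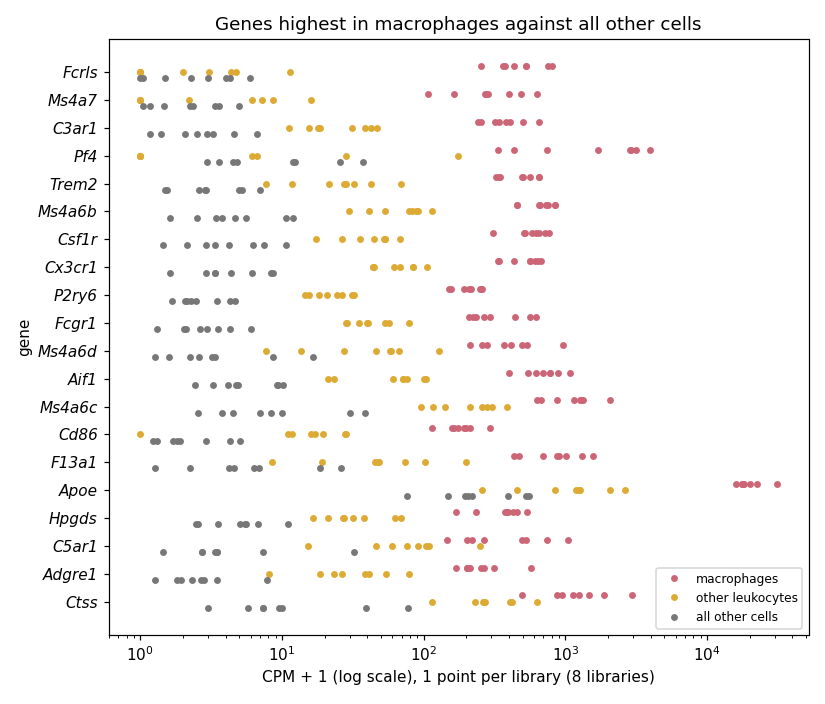
CPM plus 1 on a log axis for the 20 genes with the largest smallest-ratio of members over all other cells, 1 point for each of the 8 libraries, in macrophages, in other leukocytes and in all other cells. The macrophage points lie to the right of the other points of the same gene and library throughout, with Apoe between 15978 and 30992 CPM.

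The machinery of digestion was broadly shared. Of 24 lysosome genes, 22 were higher in members than in other cells in all 8 libraries, among them the cysteine protease Ctsb (3071 to 7176 CPM, against 176 to 407 CPM in other cells) and the asparaginyl protease Lgmn (1421 to 2882 CPM, against 34.7 to 62.8 CPM). Of 23 phagocytosis genes in the files, 11 were higher in every library and 19 in all 3 version 2 libraries. Among the 888 genes with at least 100 CPM in members of every library, 331 were higher in all 8. The share over all genes at any level was not computed. Such counts, here and for the lists below, therefore do not by themselves set a list apart. Gas6, a bridge between dying cells and their receptors, held 493, 485 and 495 CPM in version 2 and 62.9 to 610 CPM in version 1, and Mertk, one of those receptors, held 15.6 to 35.6 CPM in version 2. Of 17 iron and haem genes, 9 were higher in every library, including the haem oxygenase Hmox1 (173 to 1109 CPM, against 8.69 to 29.8 CPM).

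Of 16 transcription factors of macrophage identity, 12 were higher in members in every library and all 16 in the 3 version 2 libraries. Spi1, which encodes PU.1, was level at 492, 484 and 477 CPM over the version 2 stages and at 441 to 760 CPM in version 1. Irf8 held 239, 251 and 256 CPM in version 2. Cebpb was uneven between libraries, at 131, 12.3 and 23.1 CPM in version 2 against 885 to 2413 CPM in version 1 and 685 CPM in the Fev-Cre library, which shares its chemistry with version 2.

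Secreted products differed in how widely members exceeded other cells. Of 26 chemokine and cytokine genes, 12 were higher in members in every library. The chemokine Ccl4 held 790, 1054 and 943 CPM in version 2 and 147 to 1842 CPM in version 1. Csf1r held 509, 307 and 620 CPM in version 2, 519 to 759 CPM in version 1 and 583 CPM in the Fev-Cre library, while its ligand genes were near the floor in the members, with Il34 at 0 UMIs in all 8 libraries and Csf1 at 1.03 to 3.56 CPM in version 2. Il34 at 0 of 5840033 UMIs in version 2 E17.5 allows a level of up to 0.514 CPM. Of 23 growth factor and signal genes, 3 were higher in members in every library, with Tgfb1 at 229 to 300 CPM in version 2, and Vegfa lower in members (0 to 1.54 CPM) than in other cells (7.43 to 19.5 CPM) in the 3 version 2 libraries.

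Microglia-enriched genes were present in part. P2ry12 stood at 31.9 to 132 CPM and Gpr34 at 12 to 147 CPM over the 8 libraries. Sall1, the transcription factor that marks microglia in brain, had no UMI in the members of 7 libraries and 5.98 CPM, 1 UMI, in version 1 E14.5 batch 1. Vsig4 and Cd5l, genes known from macrophages of other organs, had at most 7 UMIs in a version 2 library and none in version 1 or Fev-Cre members. In version 1, the limit that a count of 0 allows, 3 UMIs, was 17.9 to 62.9 CPM.

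Long-resident and monocyte-related genes were compared as shares of members with a UMI with 2000 UMIs drawn at random from every cell, so that depth did not set the shares. The members under 2000 UMIs that this left out were 4 in version 1 E14.5 batch 1 and 2 in version 1 E17.5. Genes were taken for these shares after their levels had been seen. Mrc1 was found in 69.4%, 58.4% and 62.1% of version 2 members in order of stage, in 80.9% in the Fev-Cre library and in 79.5% in version 1 E14.5 batch 1. In the other version 1 libraries it was found in 10.5% (E12.5), 33.3% (E14.5 batch 2) and 10.0% (E17.5). Epithelial cells with at least 2 Epcam UMIs, which should lack the gene, showed Mrc1 in 0 to 0.468%, at median depths of 4261 to 12612 UMIs against 3400 to 9915 in members. Without thinning, Mrc1 was found in 92.8%, 78.6% and 79.1% of version 2 members.

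Lyve1 followed Mrc1. It was found in 47.7%, 55.2% and 52.0% of version 2 members by stage, in 52.3% of E14.5 batch 1 and in 45.6% of the Fev-Cre members, against 10.5%, 16.7% and 0% in the other version 1 libraries, in the order just given. Ccr2 ran the other way, with 31.6%, 62.5% and 60% in those 3 version 1 libraries, 6.82% in E14.5 batch 1 and 7.35% in Fev-Cre members. In version 2, Ccr2 was found in 2.89% at E12.5 (95% exact interval 1.66 to 4.66%), 17.53% at E14.5 (11.9 to 24.5%) and 24.5% at E17.5 (20.9 to 28.4%). Timd4 was found in 12.48%, 11.7% and 9.91% of members over the version 2 stages, and those 3 intervals overlapped. The version 1 libraries with low Mrc1 and high Ccr2 are those collected together on another day from batch 1, and both E14.5 libraries of version 1 come from the same stage, so the split of version 1 goes with the collection day. It rests on 19, 24 and 10 thinned members, and its relation to the day was not tested.

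**Figure D3:**
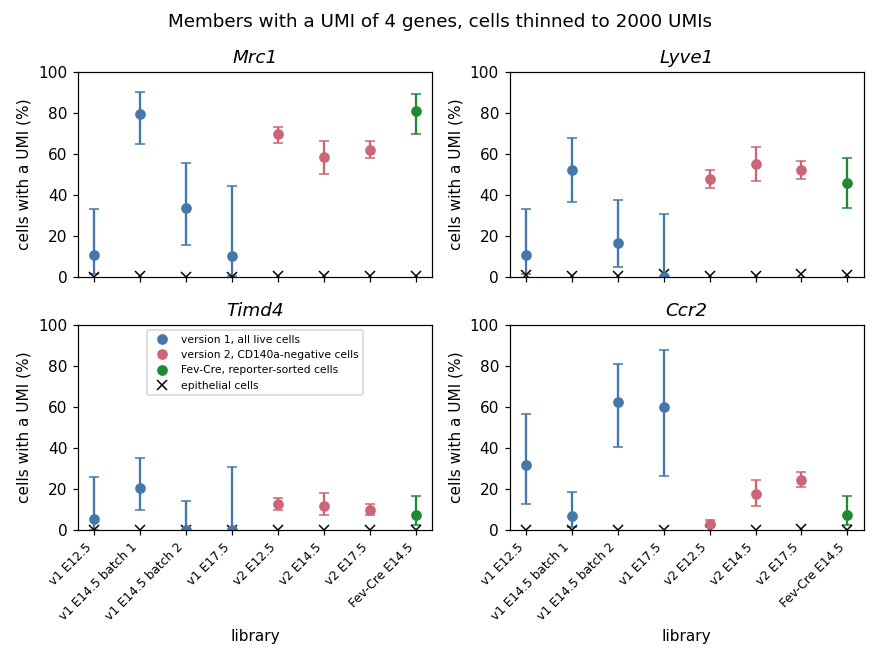
Percent of members with at least 1 UMI of Mrc1, Lyve1, Timd4 and Ccr2 after thinning to 2000 UMIs, by library, with exact 95% binomial intervals, and the same share in epithelial cells as crosses. Version 2, Fev-Cre and version 1 E14.5 batch 1 show Mrc1 in 58.4 to 80.9% of members, and the other version 1 libraries show it in 10.0 to 33.3%.

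Stages were compared on UMIs summed over the members of each library, with edgeR's quasi-likelihood test and stage and chemistry version as terms. The fit took the 5 Swiss Webster libraries with at least 20 members, which left 1 residual degree of freedom. The version 1 libraries in it are both of E14.5, so its stage differences rest on a single version 2 library per stage, each assumed to vary like the version 1 batches. Calls needed an adjusted p under 0.05 together with a change of at least 2-fold. The direction within each version is given beside the calls. In version 2 it is largely set by the fit itself. In version 1 it rests in part on libraries of 19 and 12 members. The share of all tested genes with the same direction was not computed. Between E12.5 and E17.5, 144 of 8870 genes (1.62%) were called, 91 higher and 53 lower at E17.5, and 4 of the 144 are genes that the rule used. Of the others, 92 moved in the same direction within version 1 and within version 2. Between E12.5 and E14.5, 27 genes (0.304%) were called, 18 of them in the same direction within both versions, and between E14.5 and E17.5, 35 (0.395%), of which 14 were so. With all 7 Swiss Webster libraries, including those of 19 and 12 members, 3150 genes were tested and 54 (1.71%), 2 (0.0635%) and 11 (0.349%) were called in the same order, of which 38, 2 and 7 were also called with 5 libraries. The calls depended on both libraries and settings. No call between E12.5 and E17.5 was left without the version 2 E14.5 library, where the chemistry term also had to be dropped. The same held without the chemistry term alone, and with no filter on low counts.

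A test of whether the stage difference between E12.5 and E17.5 was the same in members as in all other cells called none of 15339 genes (0%) with 5 libraries and 333 of 14143 (2.35%) with 7, 9 of them with the larger increase in members and 324 with the smaller. With 5 libraries 707 genes had an unadjusted p under 0.05, and DESeq2 called 11.

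Some genes called with stage were at least as high in neighbouring cells as in members. The share over all genes tested was not computed, so the counts below do not set the called genes apart. Of the 53 genes lower at E17.5, 49 were at least as high in version 2 E12.5 cells without leukocyte transcripts (no UMI of Ptprc, Coro1a, Laptm5, Rac2 or Tyrobp) as in members, and of the 91 higher genes 29 were so at E17.5. Against the other leukocytes of version 2, 44 of the 91 higher genes and 26 of the 53 lower genes were at least as high there as in members. Of the 91, 29 were higher in members than in both. Ins2, the insulin gene of beta cells, rose from 0.667 CPM at E12.5 over 103 CPM at E14.5 to 620 CPM at E17.5 in version 2 members (log2 fold 9.80 ± 0.97 SE, adjusted p = 4.5e-20), while the cells without leukocyte transcripts went from 15.4 over 3279 to 29036 CPM. Insulin UMIs, of Ins1 and Ins2 together, were found in 534 of 535 members at version 2 E17.5. Version 1 members held 0 insulin UMIs at E12.5, 7 and 3 in E14.5 batches 1 and 2, and 1 at E17.5. No version 1 E17.5 member held an Ins2 UMI. The digestive enzyme gene Ctrb1 rose from 11.3 over 151 to 2117 CPM in members and from 334 over 5536 to 16563 CPM in those other cells. The 54 members of version 2 E17.5 richest in them held 77.9% of the Ctrb1, Cela3b and Pnliprp1 UMIs, with 2071 in a single cell. Version 1 members held 0, 64, 2 and 1 UMIs of these genes in the library order of the insulin counts. Sfrp1, a secreted Wnt antagonist of mesenchyme, fell from 62.5 to 0.514 CPM in members and from 221 to 18.6 CPM in the cells without leukocyte transcripts. Among called genes falling in both versions, the next 7 by fall from E12.5 to E17.5 were Hmga2, 6330403K07Rik, Tshz2, Mmp11, Gap43, Epha3 and Fxyd6. These genes had log2 folds of -6.43 to -4.62. In version 2 each was lower in members than in the cells without leukocyte transcripts at both stages, as for Hmga2, an architectural chromatin protein, at 65.9 against 418 CPM and 0.685 against 38.5 CPM. From E14.5 to E17.5 the growth factors Mdk and Ptn fell by 3.11 and 2.69 on the log2 scale, with Mdk alone called with 7 libraries as well (adjusted p = 0.036 against 0.0631), and both were higher in those other cells. How much of these changes comes from RNA outside the members was not tested.

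MHC class II genes had the largest median change of the 20 lists described. Of 10 genes of class II presentation and co-stimulation, 8 were tested, 5 rose between E12.5 and E17.5 and none fell, with a median log2 fold of 4.16 against 0.0087 over all genes tested, of which 1.62% were called. H2-Aa, the class II alpha chain, held 2.22 CPM at E12.5, 19.0 CPM at E14.5 and 244 CPM at E17.5 in version 2. Its UMIs lay in 0.181%, 2.60% and 9.53% of members unthinned, at E12.5 all 10 of them in 1 cell. In version 1 it held 0 at E12.5 and in E14.5 batch 1, 13.3 CPM in batch 2 and 62.9 CPM, 3 UMIs, at E17.5, and in the Fev-Cre library 1.68 CPM. The E17.5 library was the highest of each chemistry. The log2 fold from E12.5 to E17.5 was 6.79 ± 0.85 (adjusted p = 1.22e-12), and 6.79 ± 0.75 with 7 libraries (adjusted p = 0.00134).

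The beta chains moved with it in version 2. H2-Ab1 held 0.89, 22.3 and 213 CPM over the stages (log2 fold 7.87 ± 0.92, adjusted p = 2.77e-14) and H2-Eb1 held 4.0, 6.70 and 142 CPM (5.18 ± 0.82, adjusted p = 1.19e-07). Cd74, the invariant chain that escorts class II molecules, held 119, 466 and 1013 CPM in version 2 and 269, 383, 525 and 1343 CPM in version 1 in the same library order (log2 fold 3.14 ± 0.73, adjusted p = 0.00209, and 0.00504 with 7 libraries). H2-DMa, which loads peptides, rose as well (3.08 ± 0.68, adjusted p = 0.00109), while H2-DMb1 missed the threshold (2.84 ± 0.85, adjusted p = 0.0502). H2-Aa stood at 75.4, 274 and 1640 CPM in the other leukocytes over the version 2 stages. The cells without leukocyte transcripts held 0.229, 0.227 and 3.51 CPM of it. By the sum of the class II list, other leukocytes held more than members in every library but version 1 E12.5. There members held 529 CPM and other leukocytes 75.2 CPM. With 7 libraries, 3 of 4 class II genes tested were called, beside 1.71% of all genes. The 7-library test against other cells called 1 of 9 genes of the list, with the smaller increase in members, beside 2.35% of all genes. The median log2 difference was -0.63, and -0.28 with 5 libraries. From E12.5 to E17.5 the list sum went from 306 to 1947 CPM in version 2 members and from 21.0 to 676 CPM in all other cells. Of MHC class I genes, 0 of 9 were called where 1.62% of all genes were, with a median log2 fold of 0.86. With 7 libraries 1 of 6 rose, beside 1.71% of all genes called. In the 7-library test against other cells, 8 of 9 class I genes were called with the smaller increase in members, beside 2.35% of all genes called. Their median log2 difference was -2.28. Those other cells include the other leukocytes, 119 of 13182 kept cells at version 2 E12.5 and 1022 of 12770 at E17.5. In version 1 they were 23 of 4618 and 333 of 2309. In version 2, summed class I genes went from 2083 to 3448 CPM in members and from 1682 to 3096 CPM in other leukocytes. All other cells went from 176 to 650 CPM. The part of this shift in the result was not tested.

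The class II genes lie close together on chromosome 17 (GRCm38, GENCODE M21), with H2-Ab1 at chr17:34257689-34269419 on the plus strand, H2-Aa at chr17:34282744-34287823 on the minus strand and H2-Eb1 at chr17:34305867-34316674 on the plus strand. Their promoters are known to share short boxes read by the class II transactivator complex. Because H2-Aa and H2-Eb1 moved together, the 250 bases before the transcript start of each (RefSeq, GRCm38.p6) are shown, with the longest run of bases that the 2 windows share on the gene strand in capitals. The spans are chr17:34287824-34288073 on the minus strand for H2-Aa and chr17:34305617-34305866 on the plus strand for H2-Eb1.
H2-Aa: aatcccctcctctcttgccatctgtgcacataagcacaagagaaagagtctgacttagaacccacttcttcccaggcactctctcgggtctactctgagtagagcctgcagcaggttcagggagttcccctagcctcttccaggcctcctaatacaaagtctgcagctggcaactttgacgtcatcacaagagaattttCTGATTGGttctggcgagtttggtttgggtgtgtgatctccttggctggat
H2-Eb1: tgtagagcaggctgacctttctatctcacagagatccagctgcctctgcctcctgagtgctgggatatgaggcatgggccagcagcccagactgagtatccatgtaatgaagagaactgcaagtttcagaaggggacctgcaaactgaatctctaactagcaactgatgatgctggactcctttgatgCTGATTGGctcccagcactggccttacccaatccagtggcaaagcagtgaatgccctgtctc
The shared run, CTGATTGG, has 8 bases and holds the inverted CCAAT core known as the Y box of class II promoters. It lies 51 to 44 bases before the start in H2-Aa and 62 to 55 in H2-Eb1. On either strand it is found in 3.83% of 32851 promoter windows of the same length, and in these 2 of the 5 listed class II and co-stimulation genes that had an entry. A match of letters is a description and no evidence of binding. H2-Ab1 had no entry.

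The UMIs of H2-Aa, H2-Ab1 and H2-Eb1 came from few members. In version 2 E17.5, 32 of 535 members (5.98%) had at least 10 UMIs of H2-Aa, H2-Ab1 and H2-Eb1 together, and they held 98.1% of the 3496 UMIs of these genes in the library. At version 2 E12.5, 1 member of 553, and at E14.5 2 of 154, reached this count. The cut was set after the counts had been seen, and what follows is a description of 1 library. The 32 cells and the other 503 had like depth, with medians of 9775.5 and 9974 UMIs.

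The 32 members differed from the rest in genes that the cut did not use. Cd74 stood at 14033 CPM against 202 CPM, H2-DMb1 at 362 against 13.8 CPM and Ccr2 at 675 against 166 CPM, with a Ccr2 UMI in 31 of the 32. H2-DMa was less confined to them, at 687 against 79.5 CPM, with 235 UMIs in the 32 and 437 in the other 503, of which 184 held one. Genes of long-resident macrophages were low: Lyve1 stood at 11.7 against 1399 CPM, Folr2, a folate receptor, at 2.92 against 349 CPM, Mrc1 at 137 against 999 CPM and Timd4 at 5.84 against 90.9 CPM. Csf1r (307 against 639 CPM) and Adgre1 (132 against 206 CPM) were lower, with a UMI of Csf1r in 31 of the 32 and of Adgre1 in 21. C1q UMIs in these cells were required by the rule.

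Among dendritic cell markers in the 32, Xcr1 and Zbtb46 had no UMI. Flt3 had a UMI in 4 of them and Cd209a in 5, at 17.53 and 38.0 CPM against 1.09 and 0.546 CPM in the rest. Ins2, at 552 and 624 CPM, differed little between the 32 and the other members.

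**Figure D4:**
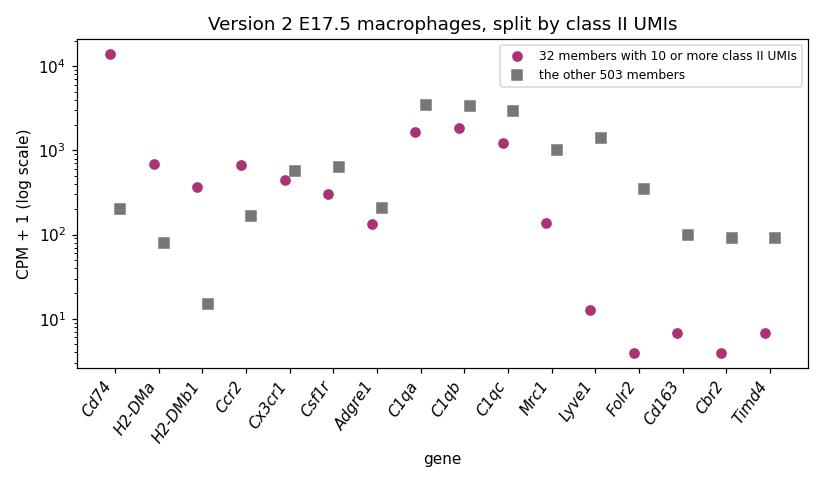
CPM plus 1 on a log axis for 16 genes in version 2 E17.5 macrophages, split into the 32 members with at least 10 UMIs of H2-Aa, H2-Ab1 and H2-Eb1 and the other 503. Cd74 stands at 14033 against 202 CPM and Lyve1 at 11.7 against 1399 CPM.

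Some genes of resident macrophages rose with stage as well. Of 18 surface and scavenger genes of resident macrophages, 15 were tested and 5 rose to E17.5, with none falling and a median log2 fold of 1.38, where 1.62% of all genes were called with a median of 0.0087. With 7 libraries, 1 of 12 was called, beside 1.71% of all genes. Cd163, the haptoglobin-haemoglobin receptor, held 3.56 CPM at E12.5, 8.93 CPM at E14.5 and 91.6 CPM at E17.5 in version 2, while version 1 held 0, 17.9, 0 and 0 CPM in the order above. Its log2 fold was 4.71 ± 0.84 (adjusted p = 5.8e-06), and it was not tested with 7 libraries. In version 1 the E17.5 library was therefore not the high one, and a single UMI there is worth 21.0 CPM. Cbr2, a carbonyl reductase, held 0.89, 8.93 and 84.8 CPM in version 2 (6.54 ± 0.97, adjusted p = 1.31e-08). In version 1 E17.5, Cd163, Cbr2 and Cd209f had no UMI in the 12 members. After thinning, a UMI of Cd163 was found in 0.904%, 1.30% and 13.8% of version 2 members over the stages (2.89%, 4.55% and 32.0% unthinned), against at most 0.0506% of epithelial cells.

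Fcna, ficolin A, held 67.9, 172 and 486 CPM (2.89 ± 0.67, adjusted p = 0.00227, and 0.291 with 7 libraries), and Wfdc17 held 44.7, 262 and 273 CPM (2.66 ± 0.66, adjusted p = 0.00617, and 0.0174 with 7 libraries). When E14.5 batch 1 was left out of the 7 libraries, the edgeR fold of Fcna was 2.6 (adjusted p = 0.0268). Mrc1, Lyve1, Folr2 and Timd4 were not called, at log2 folds of 0.45 ± 0.71, 1.18 ± 0.72, 1.89 ± 0.65 and 0.56 ± 0.65. The version 2 levels of Lyve1 were 603, 1013 and 1318 CPM and those of Mrc1 719, 600 and 949 CPM.

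Cd209f, a C-type lectin of the DC-SIGN family, was found in a small share of members. It held 0.667, 59.1 and 93.0 CPM over the stages (7.06 ± 0.95, adjusted p = 1.32e-10), with a UMI after thinning in 0%, 3.90% and 5.42% of members (0.181%, 5.84% and 8.79% unthinned), against at most 0.0169% of epithelial cells. At E17.5, 30 members with at least 3 UMIs held 95.4% of its 543 UMIs, and this cut too was chosen after the counts were seen. In contrast to the class II members, Ccr2, Plac8, Ms4a4c and H2-Ab1 had no UMI in any of the 30, while Lyve1 stood at 2549 against 1235 CPM in the other 505 members, Mrc1 at 1658 against 901 CPM, Pf4 at 8418 against 3666 CPM and Cd163 at 248 against 81.1 CPM. C1qb, at 3276 against 3283 CPM, and Csf1r, at 662 against 617 CPM, differed little. The resident genes Folr2, at 319 against 329 CPM, and Cbr2, at 81.7 against 85.0 CPM, were not higher in the 30, and Trem2 was lower in them (112 against 334 CPM) as it was in the class II members (193 against 328 CPM).

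Monocyte genes were called between E12.5 and both later stages with 5 libraries. Of 14 listed, 9 were tested, 5 rose from E12.5 to E17.5 and 3 already from E12.5 to E14.5, with a median log2 fold of 2.90 to E17.5, beside 1.62% and 0.304% of all genes called. With 7 libraries 1 of 7 was called to E17.5 and 0 of 7 to E14.5, beside 1.71% and 0.0635% of all genes. Ccr2 held 19.4 CPM at E12.5, 189 CPM at E14.5 and 196 CPM at E17.5 in version 2 (log2 fold to E17.5 3.39 ± 0.69, adjusted p = 0.000208, and to E14.5 3.30 ± 0.69, adjusted p = 0.00137). In version 1 it held 192, 65.8, 532 and 525 CPM, so E14.5 batch 1, from its own collection day, was the low library, while the others, from 1 day, went from 192 at E12.5 to 532 and 525 CPM. With 7 libraries the fold to E17.5 was 2.58 ± 0.84 (adjusted p = 0.233). Without batch 1 the Ccr2 fold was 2.59 to E17.5 (adjusted p = 0.0349) and 2.48 to E14.5 (adjusted p = 0.179). Ms4a4c held 11.6, 106 and 83.6 CPM (2.90 ± 0.69, adjusted p = 0.00339) and Plac8 16.2, 92.6 and 74.8 CPM (2.25 ± 0.66, adjusted p = 0.0437) in version 2.

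Clec4e, the receptor Mincle, had no UMI in the 553 members at version 2 E12.5 and 77 at E17.5, at least 19.8-fold higher when 3 counts are taken as the floor of a library. On the same floor Atp8b4 was at least 17.2-fold higher. Dmkn was at least 22.1-fold higher, at 14.7 CPM in E17.5 members beside 175 CPM in version 2 cells without leukocyte transcripts. Fn1, fibronectin, held 3.56, 4.46 and 64.1 CPM (4.20 ± 0.87, adjusted p = 0.000286, and 0.00704 with 7 libraries), beside 24.8, 8.41 and 35.2 CPM in the cells without leukocyte transcripts. Ly6c2, which marks circulating monocytes, held 0.445, 2.23 and 3.60 CPM in version 2, from 2, 2 and 21 UMIs (log2 fold 2.92 to E17.5, adjusted p = 0.824), and 79.8 CPM in E14.5 batch 2 and 294 CPM at E17.5 in version 1.

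**Figure D5:**
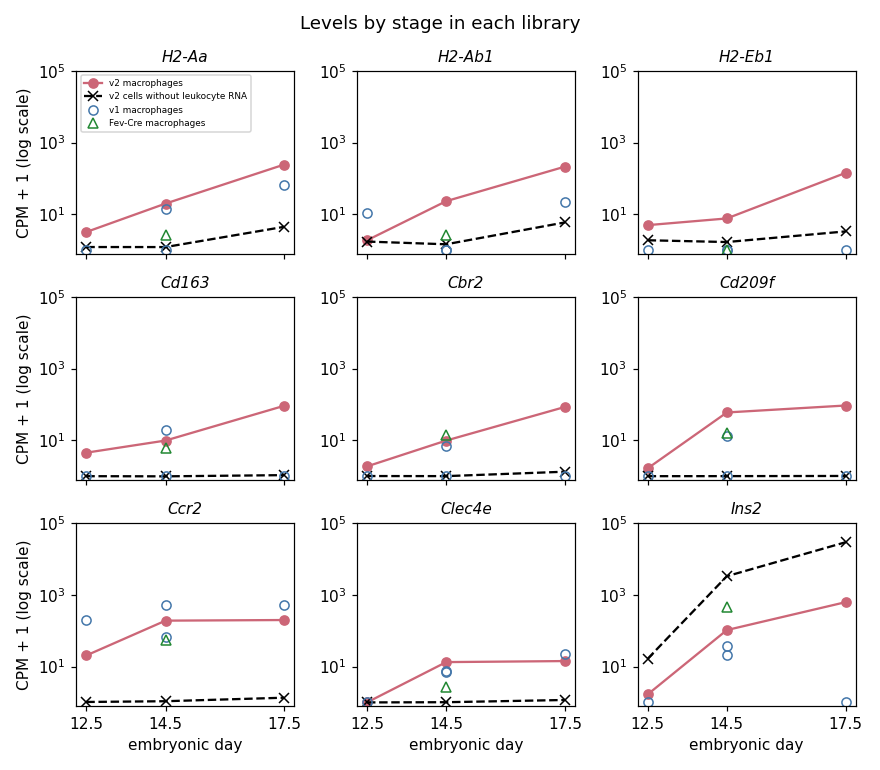
CPM plus 1 on a log axis by embryonic day for 9 genes in macrophages of version 2 (filled circles, line), version 1 (open circles) and Fev-Cre (triangle), with version 2 cells without leukocyte transcripts as crosses. H2-Aa climbs from 2.22 to 244 CPM in version 2 members and stays at or below 3.51 CPM in the crosses, and for Ins2 the crosses lie above the members at every stage.

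Most of the 144 called genes lay outside these groups, and a few from other lists are given here. Among the identity factors, Maf was not called (0.50 ± 0.66) and Cebpb fell (-2.45 ± 0.73, adjusted p = 0.0498), but Cebpb went up between these stages in version 1 and was not called with 7 libraries (adjusted p = 0.993). S100a4, a calcium-binding protein of motile cells, held 2.67, 6.70 and 111 CPM in version 2 (5.40 ± 0.85, adjusted p = 1.35e-07), and the chemokine receptor Cxcr4 2.00, 5.58 and 46.2 CPM (4.54 ± 0.93, adjusted p = 0.000216). Among chemokines and cytokines 3 of 21 tested rose, beside 1.62% of all genes, including Osm (3.88 ± 0.80, adjusted p = 0.000286) and Ccl6 (2.71 ± 0.69, adjusted p = 0.00845). In the 7-library test against other cells, 9 of 23 of them were called with the smaller increase in members, beside 2.35% of all genes called, with a median log2 difference of -2.16. The other cells of that test gained leukocytes between these stages, as given above. Immediate-early and heat-shock genes are known to be induced by tissue dissociation. At E17.5, 18 of 22 tested were higher (median log2 fold 0.64, against 0.0087 over all genes), and 1 was called, beside 1.62% of all genes. With 7 libraries 18 of 19 were higher (median 1.09), and 1 was called, beside 1.71% of all genes. Against other cells, 10 of 22 were called with the smaller increase in members with 7 libraries (median log2 difference -0.99), beside 2.35% of all genes called. With 5 libraries none was, of this list or of all genes tested. From E12.5 to E17.5 the list sum went from 12948 to 16879 CPM in version 2 members and from 4812 to 5221 CPM in other cells. In version 1 it went from 14614 to 30887 CPM in the 19 and 12 members and from 2966 to 12565 CPM in other cells. Dissociation lasted 10 min at E12.5 and 30 min at E17.5, and its part in the changes was not tested. Of the interferon response list 2 of 11 rose, beside 1.62% of all genes called, including Ifitm3 (3.0 ± 0.74, adjusted p = 0.00508). Of the 23 lysosome, 17 iron, 14 lipid, 11 microglia-enriched and 13 innate sensing genes tested none was called, which does not stand apart from 1.62% of all genes, and the medians of these lists lay between -0.22 and 0.63. With 7 libraries 1 of 6 innate sensing genes rose, beside 1.71% of all genes called.

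Cell division was read from S phase and G2/M gene lists, a cell being taken as in S or G2/M with at least 3 UMIs of either list after thinning to 2000 UMIs. In version 2 this held for 53.2% of members at E12.5 (95% exact interval 48.9 to 57.4%), 49.4% at E14.5 (41.2 to 57.5%) and 37.4% at E17.5 (33.3 to 41.6%). In all other cells of these libraries it held for 54.5%, 63.5% and 26.6%. The share of version 2 members lay below that of other cells at E14.5 and above it at E17.5. Version 1 gave 47.4%, 52.3%, 45.8% and 10.0% on 19, 44, 24 and 10 members and the Fev-Cre library 54.4%, where other cells gave 58.4%, 69.6%, 43.8%, 23.9% and 44.2%. The intervals of version 2 E12.5, version 1 E12.5 (24.4 to 71.1%), E17.5 (0.253 to 44.5%) and E14.5 batch 2 (25.6 to 67.2%) and Fev-Cre (41.9 to 66.5%) hold the value of the other cells, and that of batch 1 (36.7 to 67.5%) lies below it. Members with 2 UMIs, just below the cut, numbered 69, 19 and 56 in version 2. No gene of either list was called between stages, of 20 and 22 tested, where 1.62%, 0.304% and 0.395% of all genes were called in the 3 stage differences, so the count does not set these lists apart. Free RNA of dividing neighbours can add UMIs of these lists, which was not tested.

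Within libraries, the most variable genes were ranked by Fano factor, the variance over the mean of thinned counts, in the 4 libraries with at least 50 thinned members. Values are medians over these libraries, and over 1103 genes the median was 1.08. Genes were not matched for mean level, so part of the order can follow abundance. At version 2 E12.5 the mean was 38.5 UMIs for Apoe and 69.0 for Tmsb4x, but 0.790 for Hmox1. Apoe led at 16.4, followed by Hmox1 at 11.3, Ftl1 at 9.88, Lyz2 at 9.69, Actb at 8.74, Fth1 at 8.5, Ccl4 at 8.25 and Cxcl2 at 7.96. Hmox1 stood at 12.1, 10.6 and 20.2 in version 2 and at 1.44 in the Fev-Cre library. Of the first 15, Hmox1, Ftl1, Fth1 and Prdx1 are genes of iron, haem and redox handling, and Ccl4, Cxcl2, Ccl2, Ccl7 and Pf4 encode chemokines. Lyve1 was split between members as well: at version 2 E17.5, 226 members had no Lyve1 UMI and 225 had at least 10, and these 225 held 94.6% of Lyve1 UMIs. Mrc1 was more widely found there, in 423 of 535 members, 232 of them with at least 10 UMIs. Cd163 and Timd4 reached 10 UMIs in 5 and 9 members.

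In the Fev-Cre library, an eGFP UMI was found in 19 of 68 macrophages (27.9%, 95% exact interval 17.7 to 40.1%), at 58.9 CPM, against 541 CPM in all other cells and 1703 CPM in cells with at least 2 Fev UMIs. A tdTomato UMI was found in 11 of 68 (16.2%, 8.36 to 27.1%), at 18.5 CPM against 9.79 CPM in all other cells. Ins2 stood at 460 CPM in the same members and at 3625 CPM in all other cells. Where the reporter UMIs in members came from was not tested.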

How the data were processed

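The authors deposited UMI counts per gene and cell, made with Cell Ranger 1.1 for version 1 and 2.1 for version 2 libraries on mm10, with eGFP and tdTomato sequences added for the Fev-Cre library, whose second matrix without reporters was not used. The deposited counts were used as they stand. Cells with at least 200 genes were kept. No doublet caller was run, and members with at least 3 collagen or 2 endothelial UMIs were left out as an alternative.

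Counts were summed over members per library, the 2 wells of version 2 E17.5 together. Stages were compared with edgeR 4.0.16 (R 4.3.3; TMM scaling, its filter on low counts, terms for stage and version, Benjamini-Hochberg adjustment) on the 5 libraries with at least 20 members. A fit with all 7 Swiss Webster libraries was added after seeing the member numbers. DESeq2 1.42.0 was an alternative. The quasi-likelihood estimate current in edgeR was taken, since the older one made false calls on simulated data. This was decided after both had been run on the real counts, where they called 144 and 120 genes between E12.5 and E17.5. Libraries are pools, so no p-value measures the spread between animals. With 5 libraries the only replicate pools are the version 1 E14.5 batches. The p-values of that fit take their spread from these batches and from the pattern over genes. No spread between pools at E12.5, at E17.5 or within version 2 enters them. Shares carry exact 95% binomial intervals. Cells were thinned to 2000 UMIs with a fixed seed of 1. Python 3.11.15, numpy 2.4.6, scipy 1.17.1 and pandas 2.3.3 were used.

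The members and gene lists were chosen with earlier results of these data known. Genes to name were taken from the lists and, per stage difference, from up to 8 called genes in each direction with the largest fold and the same direction in both versions. Not all of them are printed. Genes of the shares with a UMI and both subsets at version 2 E17.5 were chosen after their values were seen. Itgam, Clec7a, C1s, Ahsp and Amy2b were not analysed here. Some genes of the lists are not reported here.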

Additional observations from a re-analysis of the deposited data

Results flagged for a closer look

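Among the genes named in the text, 2 that were called between stages changed at least 2-fold in opposite directions in every version 1 and version 2 library compared. Cebpb, a transcription factor of myeloid cells, had a log2 fold of -2.45 from E12.5 to E17.5, with 131 CPM at E12.5 and 23.1 CPM at E17.5 in version 2 members and 885 and 2413 CPM in version 1. Hspa1a, a heat-shock gene, had a log2 fold of 3.04 from E14.5 to E17.5, with 104 and 835 CPM in version 2, and with 706 and 1044 CPM in the version 1 E14.5 batches against 273 CPM at E17.5. The difference between the version 1 and version 2 libraries was not tested. The Fev-Cre library at E14.5, also of version 2 chemistry, held 685 CPM of Cebpb and 322 CPM of Hspa1a.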

How the results depend on the processing

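Calls between stages depended on the settings. From E12.5 to E17.5 the 144 calls became 0 with no filter on low counts, 0 with no replicate block (the term for chemistry version dropped), 24 with DESeq2, 27 with at least 10 C1q UMIs, 76 with members thinned, 22 with the Fev-Cre library added, 54 with 7 libraries and 72 in version 1 alone. Leaving out a library gave 0 to 118 calls, 0 without version 2 E14.5 and, of 7 libraries, 0 without version 2 E12.5 and 4 without version 1 E12.5. From E12.5 to E14.5 the 27 calls became 0, 0, 2, 1, 13, 3 and 2 in the first 7 of these settings, and 0 to 20 with a library left out. From E14.5 to E17.5 the 35 calls became 0 with no filter, 0 with no block, 1 with DESeq2, 0 with at least 10 C1q UMIs, 7 with Fev-Cre added, 11 with 7 libraries, 69 in version 1 alone and 0 to 32 with a library left out. The difference between members and other cells, with 0 calls, gave 11 with DESeq2, 96 with the older quasi-likelihood estimate, 333 with 7 libraries and 0 to 236 with a library left out. Of the 5 libraries, only version 2 E14.5 could be left out of the difference from E12.5 to E17.5, and the chemistry term was dropped with it. The other counts with a library left out of that difference come from fits of 7 libraries. So do all of those for members against other cells. The cause was not tested. No paired analysis of animals was possible because each library is a pool, and the block stands for chemistry only.

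Over the 75 pairs of a gene and a stage difference chosen by the rule for genes to name, printed or not, 711 values under an alternative kept direction and call, 747 kept the direction without a call and 12 reversed. Cebpb from E12.5 to E17.5 (-2.45) was 1.58 in version 1 alone and -2.60 to 1.74 with a library left out. From E12.5 to E14.5 (-3.39) Cebpb was 2.83 without the block, 1.31 with Fev-Cre added, 1.03 in version 1 alone and -3.44 to 0.95 with a library left out. Hspa1a from E14.5 to E17.5 (3.04) was -1.58 in version 1 alone and -1.27 to 3.08 with a library left out. Fcna from E12.5 to E17.5 ranged over -0.08 to 3.08 and H2-Ab1 from E12.5 to E14.5 over -2.94 to 4.49 with a library left out. The macrophage share was 3.76% at version 2 E12.5 with possible doublets left out and 4.76% at version 2 E17.5 with 500 genes required. The share with Timd4 at version 1 E12.5 was 0% with possible doublets left out. Without thinning, the share in S or G2/M was 75.0% in version 1 E14.5 batch 2, 79.9%, 71.4% and 69.0% over the version 2 stages and 85.3% in Fev-Cre.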
